A study of Mus musculus with 24 samples.

Results

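The 6 arrays of Hdh knock-out mouse embryonic stem (ES) cells were numbered by the submitters as biological replicates 1 to 6, and replicates 4-6 (3 arrays) were compared with replicates 1-3 (3 arrays). They are 6 of the 24 arrays in the series. All were hybridised with total RNA of undifferentiated 129/Sv cells on Affymetrix expression arrays; the knock-out carries the genotype null at Hdh (symbol Htt), and the 6 control arrays that serve here for reference, also numbered 1 to 6, carry the repeat genotype 7/7. The other 12 arrays are of 4 knock-in lines and enter only where they are named. The arrays were chosen by their titles alone, which set each array's genotype throughout, because the description field contradicts the titles for these groups. The labels state neither a date nor a batch, and do not say whether the knock-out or the control arrays came from 1 clone or several, or from separate cultures, so each p-value measures only the spread between these arrays.

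Huntingtin, the product of Htt, is a large scaffold protein that links vesicles and other cargo to microtubule motors and is needed for the mouse embryo to develop. ES cells keep an undifferentiated state through a network around Pou5f1, Sox2 and Nanog, fed by LIF acting through STAT3 and by BMP acting through the Id genes. Cultures of one ES line are known to drift with passage: they can gain or lose chromosomes, whose genes then move together, and genes that flicker between cells of a culture, such as Dppa3, can differ between cultures of one genotype. A replicate set that differs from another of the same label is therefore of interest in its own right, since a knock-out that is compared with its control as 1 group of 6 arrays takes in both sets.

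On all 12 arrays the defining ES markers were high. Pou5f1, Sox2, Nanog, Zfp42 and Esrrb stood between 11.92 and 15.04 on the log2 scale, which is the scale of every value below unless stated. Of 7 fibroblast or feeder-cell markers, only Thy1 reached 5 on any of the 12 arrays, and Col1a1, Col1a2, Col3a1, Dcn, Lum and Postn stayed at or below 3.94. The wider list of 13 measured fibroblast and feeder genes includes genes that ES cells also express, such as Fn1 and Vim. Its median difference between the knock-out sets was 0.28, against 0.02 for all genes. Of the 13, 11 were positive, against 53.8% of all genes, and 0 were called in limma, where 0.725% of all genes were higher and 0.442% lower. Without overlap, 6 of 13 were higher, against 13.4% of all genes. For the difference between the knock-out effects of the sets, Fstl1 (0.95, adjusted p = 0.00548), Thy1 (2.94, adjusted p = 0.0137) and Vim (1.00, adjusted p = 0.0301) were higher, 3 of 13 against 5.76%. The part of such cells in the results was not tested. The summed linear level of those 7 markers was 50.8 to 52.5 in knock-out replicates 1-3, 57.0 to 70.2 in knock-out replicates 4-6, 131 to 166 in control replicates 1-3 and 69.0 to 102 in control replicates 4-6. None of 5 primitive endoderm markers and none of the 3 measured mesoderm markers reached 5. The difference between 3′ and 5′ probe sets, a sign of RNA quality, was 0.75 to 1.03 for Actb and -0.06 to 0.09 for Gapdh over the 12 arrays.

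The level of Htt itself was read against the labels. Its probe set of highest mean read 7.39, 6.67 and 7.31 in knock-out replicates 1-3 and 7.31, 7.33 and 7.27 in replicates 4-6, against 8.01, 8.14 and 8.16 in control replicates 1-3 and 7.45, 8.25 and 8.05 in control replicates 4-6. All knock-out arrays were below all control arrays. Knock-out minus control was -0.98 ± 0.21 (SE) within replicates 1-3 (limma, adjusted p = 0.0128) and -0.61 ± 0.21 within replicates 4-6 (adjusted p = 0.0689), and these did not differ past the threshold (0.36 ± 0.30, adjusted p = 0.504). Without control replicate 4 the effect within replicates 4-6 passed the threshold (adjusted p = 0.00967). A signal was thus left in both knock-out sets. Of its other tested probe sets, 1 gave -0.54 ± 0.13 (adjusted p = 0.0206) and -0.07 ± 0.13 (adjusted p = 0.777), and 1 gave 0.42 ± 0.18 (adjusted p = 0.165) and 0.11 ± 0.18 (adjusted p = 0.74); the sources used here do not say where the probes lie relative to the disrupted part of the gene.

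Between replicates 4-6 and 1-3 of the knock-out, 175 of 17980 tested probe sets, 0.973%, passed an adjusted p of 0.05 in limma, 102 higher and 73 lower in replicates 4-6. Testing was limited to probe sets that reached 5 on 3 or more of the 24 arrays; the adjustment is that of Benjamini and Hochberg over all tested probe sets. Of the 175, 72 differed at least 2-fold. The number of calls was 59 to 132 when 1 knock-out array was left out (59 without replicate 3, 62 without 6, 74 without 5, 86 without 2 and 89 without 1), 598 without control replicate 4 and 14 in a fit on all 24 arrays. In the values as deposited, Dppa3 was the gene with the largest difference, down by 3.80 to values under 5, and Pdgfc rose the most, by 1.96. Of the 36 genes named below for a difference between the knock-out sets, 14 kept their call whichever knock-out array was left out. Of these, 3 (Pnma5, Usp17la and Slc39a8) read under 5 on all 6 knock-out arrays and passed the filter only through other groups, so that their difference compares values near background. The other 11 were Dppa3, Sfmbt2, Uba1y and Rhox5, which fell, and Pdgfc, Csrnp3, Fry, D1Pas1, Tgfbi, Gap43 and Nfatc4, which rose. With values below 5 raised to 5, 10 of the 36 lost their call: those 3, whose difference became 0, and Aass (-1.67, adjusted p = 0.0933), Uba1y (-0.36, adjusted p = 0.631), Lgals9 (-0.74, adjusted p = 0.156), Myh3 (-0.81, adjusted p = 0.223), Csrnp3 (0.64, adjusted p = 0.0736), Rnf17 (0.88, adjusted p = 0.0563) and Jade2 (0.79, adjusted p = 0.0556). Reading 1 probe set for each of 9511 genes, 69 genes were higher, 0.725%, and 42 were lower, 0.442%; the 2 knock-out sets did not overlap for 1274 genes higher (13.4%) and 1008 lower (10.6%) in replicates 4-6.

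The control arrays decide how these numbers can be read. In the controls 263 probe sets, 1.46%, differed between replicates 4-6 and 1-3, and they did so in the opposite direction. That count was 78, 85, 93 and 116 without control replicate 2, 1, 3 and 6, and 1105 without control replicate 4. All 102 probe sets that were higher in knock-out replicates 4-6 were lower by sign in control replicates 4-6, and 72 of the 73 that were lower were higher by sign in the controls. Of the probe sets called, 134 were called in both genotypes with opposite sign, which is 76.6% of the knock-out calls and 51.0% of the control calls, and 0 were called in both with the same sign. Over all 17980 probe sets the knock-out and the control differences had a Pearson r of -0.86 and a Spearman rho of -0.83; without control replicate 4 the r was -0.70. Probe sets are not independent replicates, and no p is given.

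**Figure D1:**
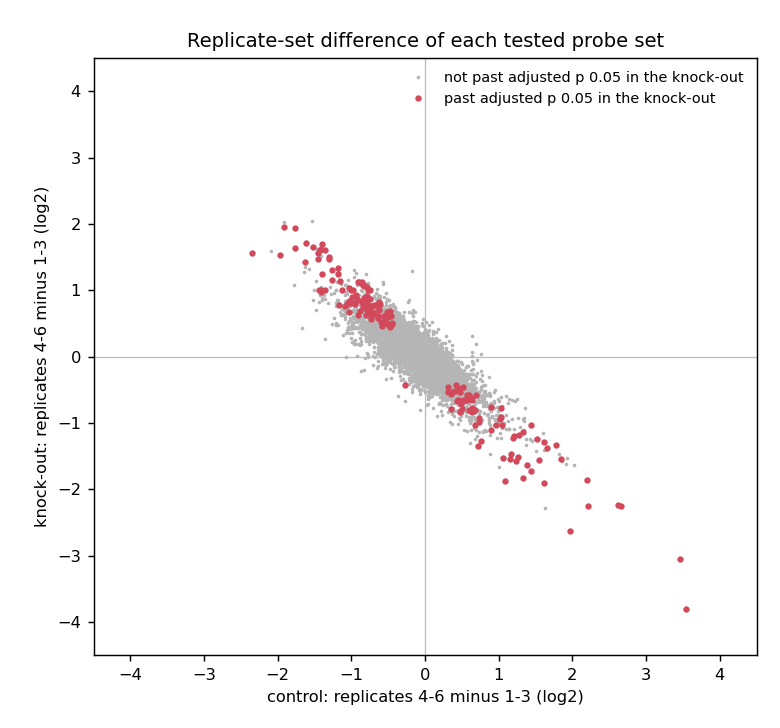
Difference between replicates 4-6 and 1-3 (log2) of each of 17980 tested probe sets in the control (horizontal axis) and in the knock-out (vertical axis), each the difference of 2 means of 3 arrays; red points passed an adjusted p of 0.05 in the knock-out. The points lie along a falling diagonal, and the red points fall in the upper left and lower right parts of the plot except 1, which was lower in both genotypes.

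The diagonal has a measurable counterpart in the values themselves. For nearly every probe set, the mean of the 6 arrays numbered 1-3, both genotypes together, equalled that of the 6 arrays numbered 4-6: the median absolute difference of these means was 0.04 and its 90th percentile 0.123, against a median standard error of 0.105. Only 54 of 17980 probe sets differed at an unadjusted p under 0.05, where 5% would be 899, and 0 passed the adjusted threshold in limma; without control replicate 4, 1044 differed at that unadjusted level, and 1 passed the adjusted threshold. The mean of the 12 knock-in arrays, by comparison, stood a median of 0.229 and 0.23 away from the means of those same 6 and 6 arrays. The sources used here name no step that would set these means equal. A gene that differed between the sets in 1 genotype only would, in values with equal set means, show up in both genotypes with opposite signs, so which genotype moved cannot be told apart from the knock-out difference alone. What a shift common to a replicate set cannot change is the knock-out minus control difference within each set, and the difference between those 2 values. Most genes below are therefore given with the 2 knock-out effects, and many with the difference between them.

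The knock-out minus control difference itself depended on the set. Within replicates 1-3, 2529 probe sets, 14.1%, passed the threshold, 1062 higher and 1467 lower in the knock-out. Within replicates 4-6, 3439 did, 19.1%, with 1997 higher and 1442 lower. Calls of the same sign in both sets numbered 772, which is 30.5% of the calls of replicates 1-3 and 22.4% of those of replicates 4-6, and 128 probe sets were called in both with opposite signs. The test of the difference between the sets called 1402 probe sets, 7.8%, of which 920 were more positive in replicates 4-6 and 482 more negative; with each array centred on its median the split was 636 to 983 and after quantile normalization 828 to 837, so that the balance of signs is not settled. Control replicate 4 stood apart from the other 11 arrays in its median over tested probe sets (8.254, against 8.449 to 8.586), and without it 2537 probe sets were called for the difference, 3817 within replicates 1-3 and 4044 within replicates 4-6. Leaving out any other 1 array of replicates 1-3 left 1370 to 1666 calls within that set, and the difference had 851 calls without control replicate 1, 888 without control replicate 2, 922 without knock-out replicate 2 and 931 without knock-out replicate 5. The fit on all 24 arrays called 295 for the difference, 1148 within replicates 1-3 and 1854 within replicates 4-6.

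Among genes lower in knock-out replicates 4-6, Dppa3 (also called Stella, a maternal factor that protects DNA methylation in the early embryo and is switched on in only some cells of an ES culture) stood first. It read 7.25, 7.41 and 7.52 in knock-out replicates 1-3 and 3.80, 3.63 and 3.35 in replicates 4-6, a fall of 3.80 (SE 0.37; limma adjusted p = 6.11e-04). In the controls it read 4.43, 5.21 and 5.27, then 7.50, 9.12 and 8.92. Within replicates 1-3 the knock-out was thus the higher genotype, by 2.42 (adjusted p = 0.00185), and within replicates 4-6 it was the lower, by a difference of -4.92 (adjusted p = 1.56e-05). Neither the knock-out sets nor the control sets overlapped. The difference between the 2 knock-out effects, -7.34 ± 0.52 (adjusted p = 2.27e-05), was the largest of the 9511 genes in the values as deposited. Knock-out replicates 4-6 were all under 5, so these sizes are partly read near background. With values below 5 raised to 5, the knock-out sets differed by -2.39 (limma adjusted p = 0.0161). The effect within replicates 4-6 was then -3.51 and the difference between the effects -5.74 (adjusted p = 4.64e-04).

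Sfmbt2, an imprinted Polycomb-related gene expressed from the paternal copy, was below control in both sets but far more so in replicates 4-6. Its knock-out arrays read 6.37, 6.38 and 6.59, then 4.88, 4.63 and 4.12, and its control arrays 8.02, 7.85 and 8.0, then 9.19, 9.74 and 9.76. The knock-out effect was -1.51 within replicates 1-3 and -5.02 within replicates 4-6 (difference -3.51 ± 0.28, adjusted p = 6.50e-05). Its knock-out arrays of replicates 4-6 were all under 5, so the size of the latter effect is partly read near background. The X-linked homeobox gene Rhox5 followed the same order: its knock-out arrays read 10.38, 10.35 and 10.50 in replicates 1-3 and 8.87, 8.72 and 8.77 in replicates 4-6, and knock-out minus control went from -0.73 to -3.73 (difference -3.0 ± 0.14, adjusted p = 1.15e-06). In both genes every knock-out array of replicates 4-6 was below every other array of the 12.

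For a second group of the falling genes the knock-out was below its control past the threshold in replicates 4-6 and not in replicates 1-3. Aass, an enzyme of lysine breakdown, had a knock-out effect of 0.16 (adjusted p = 0.842) and then -4.31 (adjusted p = 5.71e-05). Pnma5, an X-linked paraneoplastic antigen gene, went from 0.05 to -4.80, and Usp17la, a deubiquitinase gene of a multigene family, from 0.04 to -3.35. With values below 5 raised to 5 the effects in replicates 4-6 were -3.72 for Aass, -1.23 for Pnma5 and -0.09 for Usp17la. For Pnma5 and Usp17la, all arrays of replicates 1-3 in both genotypes were under 5. Their effects in that set thus compare background with background. Eprn went from -0.56 (adjusted p = 0.242) to -3.51. Smc1b, a meiotic cohesin subunit, had -0.13 and -3.79, but all 6 knock-out arrays and control replicates 1-3 were under 5, so that the former value compares background with background. With values below 5 raised to 5 its effect in replicates 4-6 was -1.05 (adjusted p = 0.0674).

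Abca1, the cholesterol exporter, ran the other way: the knock-out was above control in both sets, and less so in replicates 4-6. It read 8.78, 8.69 and 8.80 in knock-out replicates 1-3 and 7.62, 6.69 and 6.78 in replicates 4-6, and knock-out minus control was 4.22 and 1.06 (difference -3.16 ± 0.44, adjusted p = 0.00206). The effect within replicates 4-6 (adjusted p = 0.0353) lost its call without control replicate 1, 4 or 5 or knock-out replicate 4 or 6 (adjusted p = 0.0518, 0.0781, 0.0843, 0.116 and 0.051). Nrp2, a semaphorin and VEGF co-receptor, was above control by 1.72 in replicates 1-3 and below it in replicates 4-6 (-2.19; difference -3.91 ± 0.73, adjusted p = 0.00962), with a difference between the knock-out sets that missed the threshold (-2.28, adjusted p = 0.0701). A further probe set of Nrp2 gave -0.23 (adjusted p = 0.496) between the knock-out sets and -0.36 (adjusted p = 0.212) for the difference, without a call in either.

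Of the 3 tested Y-linked genes, singled out after their values were seen, 2 reached 5 in the knock-out. Both read lower in its replicates 4-6 in the values as deposited. Uba1y, the Y-linked copy of the ubiquitin-activating enzyme, read 5.35, 5.37 and 5.37 in knock-out replicates 1-3 and 3.48, 3.48 and 3.53 in replicates 4-6, while the control arrays read 5.29, 5.27 and 5.26, then 6.71, 7.88 and 7.80. Knock-out minus control was 0.09 (adjusted p = 0.855) in replicates 1-3 and -3.97 (adjusted p = 3.54e-06) in replicates 4-6. The knock-out arrays of replicates 1-3 stood close to 5 and those of replicates 4-6 under it. The call of Uba1y between the knock-out sets was lost with values below 5 raised to 5, as given above. Eif2s3y, a translation initiation factor subunit, went from 1.53 to -1.58 (difference -3.11 ± 0.34, adjusted p = 4.81e-04); its highest knock-out array, replicate 2, read 10.11 and its lowest, replicate 6, 8.10. Uty, a histone demethylase homologue, read under 5 on all 6 knock-out arrays and on control replicates 1-3, and 5.05, 5.84 and 5.73 on control replicates 4-6; with values below 5 raised to 5 its knock-out effect was 0.00 and then -0.54 (adjusted p = 0.0508). Its other tested probe sets gave differences between the effects of -2.12 (adjusted p = 0.00174) and -0.04 (adjusted p = 0.935). In bulk RNA, fewer cells that express a gene and less RNA per cell cannot be told apart.

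Among genes higher in knock-out replicates 4-6, Pdgfc, a secreted platelet-derived growth factor, came first. It read 7.48, 8.20 and 8.31 in knock-out replicates 1-3 and 10.08, 10.06 and 9.73 in replicates 4-6, a rise of 1.96 (SE 0.20, adjusted p = 9.38e-04), and 10.20, 10.32 and 10.14, then 8.28, 8.12 and 8.53 in the controls. The knock-out effect changed sign with the set, from -2.23 to 1.64 (difference 3.87 ± 0.28, adjusted p = 3.17e-05). Tgfbi, an extracellular matrix protein induced by TGF-beta, did the same: 7.37, 7.76 and 7.49 became 9.16, 9.16 and 9.16 in the knock-out, and knock-out minus control went from -2.18 to 0.85 (difference 3.04 ± 0.17, adjusted p = 3.99e-06). Its 3 other tested probe sets rose by 1.5 to 1.95 between the knock-out sets, all past the threshold. Csrnp3, a nuclear protein of the Axud1 family, had effects of -1.65 and 1.68. Its knock-out replicates 1-3 and control replicates 4-6 were all under 5, so each effect compares a low value with background. With values below 5 raised to 5 the effects were -0.58 (limma adjusted p = 0.0253) and 0.64 (adjusted p = 0.0129).

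Sox1, a neuroectoderm transcription factor, read 5.28, 5.49 and 6.58 in knock-out replicates 1-3 and 7.34, 7.39 and 7.54 in replicates 4-6, and in the controls 6.85, 6.88 and 6.17, then 4.90, 4.84 and 4.87. Its knock-out effect was -0.85 (adjusted p = 0.0795) and then 2.55 (adjusted p = 2.66e-04; difference 3.40 ± 0.41, adjusted p = 9.50e-04). The summed linear level of the 3 measured neuroectoderm markers was 70.4 to 136 in knock-out replicates 1-3, 185 to 210 in knock-out replicates 4-6, 88.9 to 133 in control replicates 1-3 and 50.1 to 52.8 in control replicates 4-6. Pax6 did not follow Sox1, with 4.34 to 5.51 in knock-out replicates 1-3 and 4.10 to 4.20 in replicates 4-6, and Neurog2 stayed at or below 2.44 on all 12 arrays. The part of neuroectoderm-like cells in the values of Sox1 was not tested. Cpe, a prohormone-processing carboxypeptidase, went from -0.13 to 3.27 (difference 3.40 ± 0.48, adjusted p = 0.00233).

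A further group of rising genes was below control past the threshold in replicates 1-3, while most of them did not differ from it past the threshold in replicates 4-6. Fry, a scaffold protein of the mitotic spindle, read 5.80, 5.12 and 5.63 in knock-out replicates 1-3 and 7.05, 7.30 and 7.28 in replicates 4-6, and its knock-out effect was -3.16 (adjusted p = 2.91e-06) and then -0.07 (adjusted p = 0.837). Plac8, a small cysteine-rich protein, had -3.29 and -0.27, Gap43, a growth-cone protein of neurons, -2.32 and 0.11, and Nav1, a microtubule-associated neuron navigator, -2.04 and 0.54. Slc39a8, a zinc importer, had -3.82 and -0.32 on knock-out arrays that were all under 5, and -1.24 and 0.00 with values below 5 raised to 5; a further probe set of it gave -0.07 between the knock-out sets (adjusted p = 0.808). D1Pas1, a DEAD-box helicase gene related to Ddx3x, kept a called deficit in both sets, with -4.05 and -0.89. The keratin gene Krt19 had -4.21 and -0.26 (difference 3.95 ± 1.03, adjusted p = 0.0412; 0.069 to 0.0905 without any 1 of 9 of the 12 arrays), and its difference between the knock-out sets missed the threshold (2.04, adjusted p = 0.265). Knock-out replicates 1-3 of Krt19 were all under 5, so the effect of -4.21 is partly read near background. Control replicate 4 read 3.28 for Krt19 against 6.82 and 6.73 in control replicates 5 and 6. Without it the effect in replicates 4-6 was -1.43 (adjusted p = 0.00125), so that the knock-out was below control in both sets, and the knock-out sets differed (adjusted p = 4.65e-04). Mb21d2 lies outside this group and was named for its fall of 1.78 between the control sets (adjusted p = 0.0133). That call was lost without control replicate 1, 2 or 3 (adjusted p = 0.0715, 0.0555 and 0.0564). Mb21d2 had 1.08 in the knock-out (adjusted p = 0.124) and effects of -0.48 (adjusted p = 0.309) and 2.38.

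**Figure D2:**
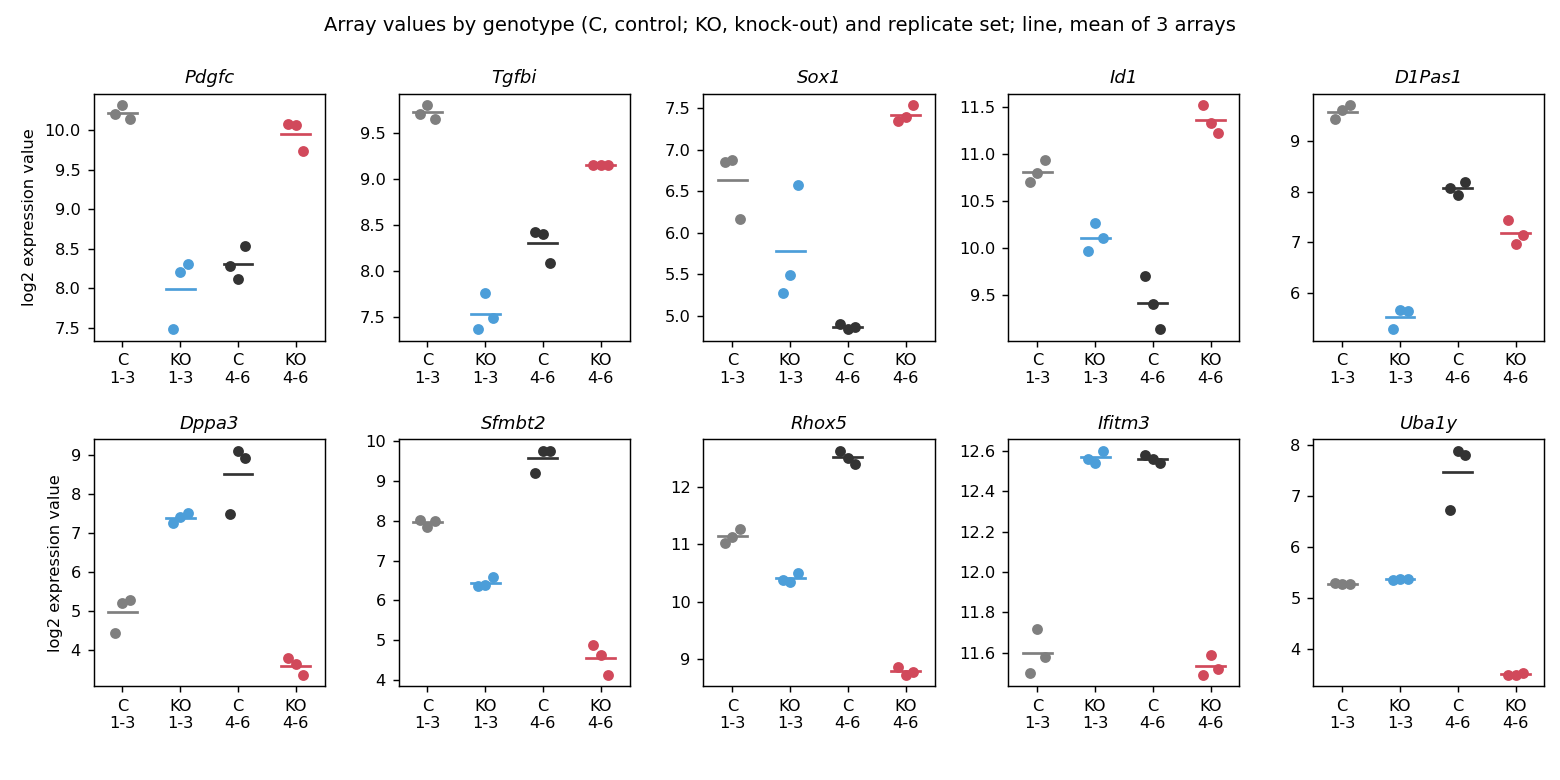
Log2 value of 10 genes on each of the 12 control (C) and knock-out (KO) arrays, by replicate set; each point is 1 array, each line the mean of 3, and each vertical axis has its own range that does not start at 0. Pdgfc and Tgfbi are below control in replicates 1-3 and above it in replicates 4-6, Dppa3 and Ifitm3 the reverse, and the knock-out values of Sfmbt2, Rhox5 and Uba1y in replicates 4-6 lie below all others.

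Of 31 gene lists for ES-cell states, signalling and metabolism, 11 held at least 1 gene called between the knock-out sets and 20 held none. In the LIF-STAT3 and BMP-Id list 3 of 12 measured genes rose and 0 fell, against 0.725% and 0.442% of all genes, and the list median was 0.19 against 0.02 for all genes. Id1, which blocks bHLH differentiation factors downstream of BMP, read 9.96, 10.26 and 10.10 in knock-out replicates 1-3 and 11.52, 11.33 and 11.22 in replicates 4-6 (rise 1.25, SE 0.15, adjusted p = 0.00296). Its knock-out effect went from -0.70 (adjusted p = 0.0109) to 1.95 (adjusted p = 1.70e-05). Id2, its relative, read 10.37, 10.74 and 10.75, then 12.12, 11.67 and 11.44, with effects of 0.22 and 2.24, and Junb, an AP-1 transcription factor, read 8.31, 8.56 and 8.53, then 9.47, 9.15 and 9.15, with effects of -0.03 and 1.71. In all 3 the knock-out arrays of replicates 4-6 were the highest of the 12. For the test of the difference, 4 of the 12 were higher and 0 lower, against 5.76% and 3.02% of all genes. Junb is also in the immediate early list, as the 1 of its 14 measured genes called between the knock-out sets. The median of that list was 0.35, with 12 of 14 positive against 53.8% of all genes. Without overlap, 6 of the 14 were higher and 1 lower, against 13.4% and 10.6%.

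Pluripotency lists stood near the background between the knock-out sets. Dppa3 was the called gene of 19 naive pluripotency genes, and 0 of 11 core pluripotency genes and 0 of 14 primed epiblast genes were called in limma, where 0.725% of all genes were higher and 0.442% lower; lists of this size would hold few or no calls at those shares. The list medians were -0.05, -0.07 and 0.04, against 0.02. For the difference between the knock-out effects, 3 of the 19 naive genes were higher and 3 lower, against 5.76% and 3.02% of all genes. Of the 14 primed genes 0 were higher and 2 lower, and 0 of the 11 core genes were called. Tfcp2l1, a naive-state transcription factor, went from -0.19 to 0.68 (difference 0.87, adjusted p = 0.00409), and Nr0b1, an orphan nuclear receptor of ES cells, from 1.01 to -0.05 (difference -1.06, adjusted p = 0.0203). Of the primed genes, 7 of 14 were below control in replicates 1-3 and 5 of 14 in replicates 4-6, against 9.61% and 9.2% of all genes. The de novo methyltransferase Dnmt3b was lower in both, by a larger margin in replicates 4-6 (-0.65 and -1.71; difference -1.05, adjusted p = 0.00687), and Otx2, which opens the primed programme, had 0.39 (adjusted p = 0.44) and -1.33 (adjusted p = 0.00998).

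Genes of the hypoxia response were above control mainly in replicates 1-3. Of 19 measured, 10 were higher in the knock-out within replicates 1-3, against 6.34% of all genes, and 3 within replicates 4-6, against 11.4%; the list medians were 0.77 and 0.06. For the difference between the sets, 6 of 19 were lower, against 3.02%, and 0 higher, against 5.76%. Bnip3, a mitophagy receptor, had knock-out effects of 1.66 and -0.47 (difference -2.13, adjusted p = 0.00489; without control replicate 4 the latter effect was -0.77, adjusted p = 0.0179), Ddit4, an inhibitor of mTOR complex 1, 1.96 and -0.30 (-0.61 without control replicate 4; difference -2.26, adjusted p = 0.00671), and the glucose transporter Slc2a1 1.00 and 0.24 (difference -0.76, adjusted p = 0.0113). None of the 19 was called between the knock-out sets alone in limma (median -0.28), where 0.725% of all genes were higher and 0.442% lower. There 3 of 19 were positive, against 53.8% of all genes.

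Of 14 measured genes of glycolysis, 6 were above control within replicates 1-3, against 6.34% of all genes, and 0 within replicates 4-6 in limma, against 11.4%; 3 were lower for the difference, against 3.02%. Tpi1, triosephosphate isomerase, had 1.11 and -0.04 (-0.24 without control replicate 4; difference -1.15, adjusted p = 0.019), and the hexokinase Hk2 0.93 and 0.32 (difference -0.61, adjusted p = 0.0309). Targets of p53 gave 6 of 18 above control in replicates 1-3, against 6.34% of all genes, and 3 in replicates 4-6, near the 11.4% of all genes. Pmaip1, a BH3-only death protein, was the 1 of the 18 that rose between the knock-out sets, against 0.725% (1.06, adjusted p = 0.031), with effects of -0.30 and 1.55. Of 19 genes of cholesterol synthesis, 2 were above control in replicates 1-3, against 6.34% of all genes, and 9 in replicates 4-6, against 11.4%, but the difference itself was called for Hsd17b7 alone, 1 of 19 against 5.76% (1.41, adjusted p = 3.89e-04).

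In the list of the integrated stress and unfolded protein response, 10 of 28 genes were below control in replicates 1-3 and 12 of 28 in replicates 4-6, against 9.61% and 9.2% of all genes; 3 and 1 were above control, against 6.34% and 11.4%. The other 15 members in each set were not called. Mthfd2, a mitochondrial folate enzyme, had -1.10 and -1.16, and Psph, of serine synthesis, -0.58 and -0.65. Xbp1, the spliced factor of the unfolded protein response, was the 1 of the 28 that fell between the knock-out sets, against 0.442% (-0.65, adjusted p = 0.0287), from 0.61 above control to -0.61. Ifitm3, an interferon-inducible membrane protein, was the 1 called member of 15 interferon and MHC class I genes, where 0.442% of all genes were lower. Its knock-out values of 12.56, 12.54 and 12.60 became 11.49, 11.59 and 11.52 (fall 1.03, SE 0.08, adjusted p = 1.12e-04). The controls went from 11.50, 11.72 and 11.58 to 12.58, 12.56 and 12.54. Of 24 imprinted genes, 2 were called higher (Grb10 and Mest) and 1 lower (Sfmbt2), against 0.725% and 0.442% of all genes. Mest read under 5 on all 6 knock-out arrays and differed by 0.00 with values below 5 raised to 5. For the difference between the effects, 3 of the 24 were higher and 4 lower, against 5.76% and 3.02%. Grb10, an adaptor that dampens insulin signalling, had effects of 0.51 and 2.21.

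Cnn2, an actin-binding calponin, was the 1 of 17 actin and SRF genes called between the knock-out sets, where 0.442% of all genes were lower. It had a fall of 0.99 (adjusted p = 0.00958) and effects of 0.33 and -1.40. Of 8 measured trophoblast genes, 2 were called lower, against 0.442% of all genes, and the same 2 were lower for the difference, against 3.02%. Fgfr2, a fibroblast growth factor receptor, fell by 1.02 (adjusted p = 0.0291), with effects of 0.83 and -1.24. Rhox6, a homeobox neighbour of Rhox5, had -0.66 (adjusted p = 0.0354) on knock-out arrays all under 5, and 0.00 with values below 5 raised to 5. The FGF-ERK feedback gene Ier3, also an immediate early gene, missed the threshold between the knock-out sets (-1.40, adjusted p = 0.0581), but its knock-out effect changed sign from 1.42 to -1.59 (difference -3.02, adjusted p = 0.0022). None of the 53 respiratory chain genes, 33 ribosomal protein genes, 31 proteasome genes, 18 heat shock genes, 18 huntingtin-binding proteins, 23 G1/S genes or 25 G2/M genes was called between the knock-out sets in limma, where 0.725% and 0.442% of all genes were; lists of this size would hold few or no calls at those shares. Without overlap, 11 of 31 proteasome genes were lower in replicates 4-6, 11 of 53 respiratory chain genes were lower and 7 of 23 G1/S genes were higher, against 10.6% lower and 13.4% higher of all genes; the list medians were -0.12, -0.07 and 0.13.

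Chromosomes gave the broadest pattern. On chromosome 14, 335 genes were tested, of which 8 were higher and 2 lower between the knock-out sets; the corresponding counts were 4 and 7 of 801 on chromosome 11, and 57 and 33 of 8375 on all others. Single genes rarely passed, but whole chromosomes differed between the sets, with opposite signs in the 2 genotypes. The median difference over chromosome 14 genes was 0.14 in the knock-out and -0.21 in the control. On chromosome 11 it was -0.12 and 0.11. With near-equal set means, which genotype moved cannot be told apart for the chromosomes either. The median level of chromosome 14 genes over the mean of the 6 controls was 0.36, 0.32 and 0.38 on knock-out replicates 1-3 and 0.54, 0.53 and 0.53 on replicates 4-6. The means differed by 0.181, and the sets did not overlap (exact two-sided permutation test, p = 0.1, the smallest that 3 against 3 arrays allow). Against the 3 controls of the same set, the medians were 0.22, 0.21 and 0.25, then 0.65, 0.65 and 0.60. Within replicates 4-6, 67.5% of chromosome 14 genes were called higher than control, against 11.4% of all genes, and within replicates 1-3 22.7%, against 6.34%.

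Chromosome 11 moved the other way. Its median over the mean of all controls was -0.12, -0.17 and -0.14 on knock-out replicates 1-3 and -0.32, -0.22 and -0.26 on replicates 4-6, a mean change of -0.123 (exact permutation p = 0.1, n = 3 and 3). Against controls of the same set it was -0.06, -0.10 and -0.08, then -0.38, -0.27 and -0.33. Genes called lower than control made up 10.7% of chromosome 11 in replicates 1-3 and 34.2% in replicates 4-6, against 9.61% and 9.2% of all genes.

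Of 19 autosomes, 5 had knock-out sets that did not overlap: 14 and 11, and, singled out after their values were seen, 1, 8 and 2. On chromosome 1 the medians against controls of the same set were -0.17, -0.20 and -0.13 on knock-out replicates 1-3 and 0.21, 0.27 and 0.20 on replicates 4-6. On chromosome 8 they were -0.03, -0.06 and -0.04, then 0.21, 0.28 and 0.20, and on chromosome 2 they were 0.15, 0.16 and 0.16, then 0.01, 0.07 and 0.02. The same medians over all 9511 genes lay between -0.06 and 0.05 on the 6 knock-out arrays. Between the sets, the median difference over chromosome 1 genes was 0.18 in the knock-out and -0.23 in the control. It was 0.10 and -0.18 on chromosome 8, and -0.09 and 0.03 on chromosome 2. The controls were not level either: on chromosome 14 they stood at 0.09 to 0.13 over the mean of all controls in replicates 1-3 and at -0.24 to -0.03 in replicates 4-6. On chromosome 8 control replicate 4 stood at -0.30, against 0.03 and 0.00 in control replicates 5 and 6. Over that same mean, chromosome 8 read 0.04, 0.04 and 0.05 on knock-out replicates 1-3 and 0.12, 0.19 and 0.12 on replicates 4-6. On chromosome 11 control replicate 4 stood at -0.10, against 0.16 and 0.13. The chromosome medians were not read without control replicate 4.

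**Figure D3:**
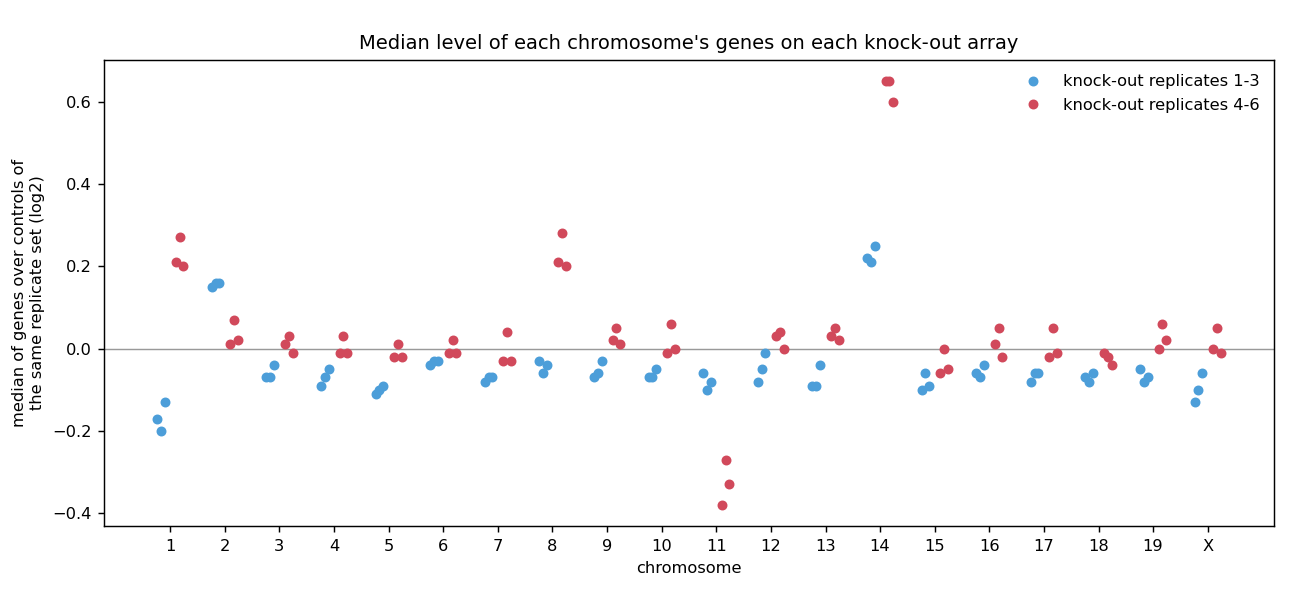
Median over a chromosome's tested genes of the log2 difference from the mean of the 3 controls of the same replicate set, for each of the 6 knock-out arrays; each point is 1 array, blue for replicates 1-3 and red for replicates 4-6. Chromosome 14 lies at 0.21 to 0.25 in replicates 1-3 and 0.60 to 0.65 in replicates 4-6, and chromosome 11 lies lowest in replicates 4-6.

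Along the chromosomes, each split by gene order into 5 parts of equal gene number, the shifts of replicates 4-6 ran end to end. On chromosome 14 the median knock-out effect of replicates 4-6 was 0.57 to 0.67 in the 5 parts, with 89.6% to 97% of genes positive, and that of replicates 1-3 was 0.15 to 0.36. On chromosome 11 it was -0.35 to -0.29 in replicates 4-6, on chromosome 1 0.21 to 0.29 and on chromosome 8 0.18 to 0.27. In replicates 1-3 chromosome 14 was above control in all 5 parts, while the shifts of chromosomes 2 and 1 were partial. Chromosome 2 had medians of -0.03 and -0.09 in its opening parts and 0.22, 0.29 and 0.31 in the rest, where replicates 4-6 had -0.02 to 0.06, and chromosome 1 had -0.01, -0.03 and -0.12, then -0.35 and -0.33.

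**Figure D4:**
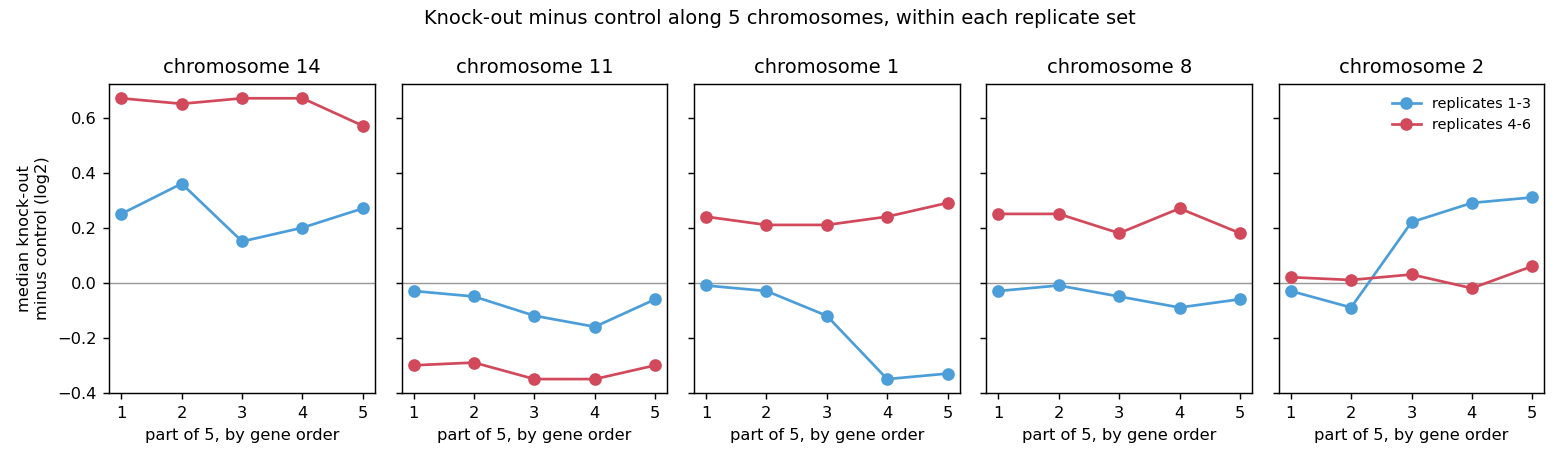
Median knock-out minus control difference (log2) over the tested genes in each of 5 parts, by gene order, of chromosomes 14, 11, 1, 8 and 2, within replicates 1-3 (blue) and within replicates 4-6 (red). The red lines are near level along each chromosome; the blue line of chromosome 2 steps up between parts 2 and 3 and that of chromosome 1 steps down between parts 3 and 4.

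The genes of chromosome 14 called between the knock-out sets included Zmiz1, a transcriptional coregulator, which read 7.32, 7.45 and 7.46 in replicates 1-3 and 8.22, 8.67 and 8.38 in replicates 4-6 (rise 1.01, adjusted p = 0.0187), with knock-out effects of -0.35 and 1.66. Clu, the secreted chaperone clusterin, rose by 1.01, with effects of -1.34 and 0.45, the latter not called. Pnma2 rose by 0.91, with effects of -0.56 and 1.34. Nfatc4, a calcineurin-dependent transcription factor, rose by 0.74, with effects of 0.33 and 1.71. Micu2, a regulator of the mitochondrial calcium uniporter, rose by 0.77, with effects of -0.15 and 1.35. The germ-cell Tudor protein gene Rnf17 rose by 0.88, from -1.69 to -0.06 against control. Further tested probe sets of Nfatc4 (0.87, adjusted p = 0.149) and 1 of the 2 of Rnf17 (0.95, adjusted p = 0.0546) had the same sign without a call. Those of Clu gave 0.7 (adjusted p = 0.0538), 0.56 (adjusted p = 0.186) and 0.8 (adjusted p = 0.0222). Falls on a chromosome whose median rose came from Sox21, a neural-progenitor repressor (7.02, 6.71 and 7.54, then 6.03, 5.88 and 6.06, with effects of 2.22 and 0.22), and Fam25c (effects 0.89 and -0.21). A further probe set of Sox21 gave -2.62 between the knock-out sets (adjusted p = 8.92e-07).

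On chromosome 11, Lgals9, a galectin, read 5.72, 5.75 and 5.74 in knock-out replicates 1-3 and 4.07, 4.52 and 4.09 in replicates 4-6 (fall 1.51, adjusted p = 0.0105), with effects of -0.52 and -3.3. Myh3, embryonic myosin, fell by 1.28, with effects of 0.31 and -2.59. Krt17, a keratin, fell by 1.04, with effects of 2.29 and 0.58. Cpsf4l fell by 0.83, with effects of 0.05 and -1.25, while a further probe set of it gave 0.15 between the knock-out sets (adjusted p = 0.87). Against the chromosome's median, Slc47a1, a drug and toxin exporter, rose by 1.01, Cobl, an actin nucleator, by 0.83, Jade2 by 0.79 and Grb10 by 0.68; the other tested probe sets of Grb10 gave 0.84 (adjusted p = 0.0878) and 0.53 (adjusted p = 0.199). Cobl changed sign against control, from -0.95 to 0.75. Slc47a1 stayed below control in both sets, with effects of -3.21 and -1.22, and Jade2 had -1.57 and 0.38.

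The 20 genes that mark the knock-out against the control over all arrays, a list chosen on these same arrays and so no independent evidence, kept their sign in both sets. All 20 were called within replicates 1-3 and 18 within replicates 4-6; Ttn (-3.94, then -1.63, adjusted p = 0.0551) and Arap2 (3.3, then 1.23, adjusted p = 0.0929) missed the threshold in the latter. Both turned on single control arrays. Control replicate 4 read 7.65 for Ttn against 5.34 and 5.21 in its set, and 3.05 for Arap2 against 5.36 and 4.98. Without it the effects were -0.84 (adjusted p = 0.0522) and 0.52 (adjusted p = 0.125), and the size then differed between the sets for both (adjusted p = 7.78e-04 and 4.67e-04). Without control replicate 5 both passed within replicates 4-6 (-1.99, adjusted p = 0.0383, and 1.67, adjusted p = 0.0301), and without control replicate 6 Ttn did (-2.06, adjusted p = 0.0312). Ttn also read under 5 on all 6 knock-out arrays, and a further probe set of it gave a difference between the effects of 0.21 (adjusted p = 0.821). Elf1, Kbtbd11 and Perp in replicates 1-3, and Abca1 and Egln3 in replicates 4-6, lost their call when some single array was left out. The size differed between the sets past the threshold for 9 of 20. Mest, an imprinted gene of the alpha/beta hydrolase fold, read 3.16, 2.87 and 2.83, then 3.73, 3.32 and 3.71 in the knock-out, all under 5, against 10.67 to 11.49 in the controls. Its effects in the values as deposited, -8.52 and -7.16, are therefore not measured on the knock-out side; with values below 5 raised to 5 they were -6.47 and -5.75, and their difference of 0.72 (adjusted p = 6.20e-04) came from the control arrays, which fell by 0.72. The endocytic receptor gene Lrp2 had -5.18 and -2.08 (adjusted p = 0.00522 for the difference). Its knock-out arrays read 4.64, 3.49 and 3.04 in replicates 1-3 and 4.70 in replicate 4, all under 5. The size of its effects is thus partly read near background. Bhlhe40 and Egln3, both of the hypoxia list, had 3.81 and 1.93, and 2.81 and 0.93. The effect of Egln3 in replicates 4-6 was 0.54 without control replicate 4, and a further probe set of Egln3 gave a difference of -1.46 (adjusted p = 0.107). Lefty2, an inhibitor of Nodal, had 1.79 and 1.78, a difference of -0.01 ± 0.32 (-0.33, adjusted p = 0.254, without control replicate 4), and Lncenc1, an ES-cell noncoding RNA, -3.44 and -3.74. The absolute effect was larger in replicates 1-3 for 10 of the 20 and in replicates 4-6 for 10.

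**Figure D5:**
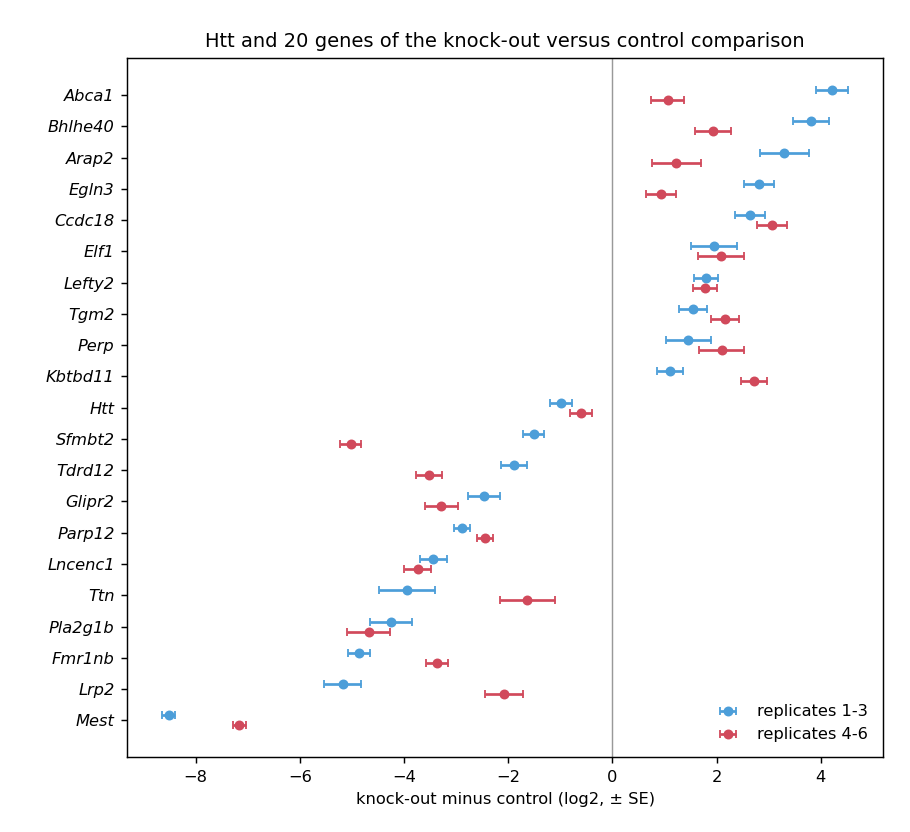
Knock-out minus control (log2, point ± SE from limma) within replicates 1-3 (blue) and replicates 4-6 (red) for Htt and the 20 genes that mark the knock-out over all arrays, ordered by the value in replicates 1-3. The 20 genes lie on the same side of 0 in both sets; Abca1 and Sfmbt2 lie far apart, at 4.22 and 1.06 and at -1.51 and -5.02.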

How the data were processed

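Total RNA of 24 samples had been measured on 3′ expression arrays. The values were the authors' deposited log2 values, made with GCRMA per the submitters' processing notes; the sources used here give neither its version nor any further adjustment. Of 45101 probe sets, 17980 (39.9%) reached 5 on 3 or more of the 24 arrays and were tested. The platform annotation gave 1 gene for 34945 probe sets, several for 932 and none for 9160; a gene was read from its probe set of highest mean (9511 genes, 9495 with a chromosome from RefSeq by gene identifier). limma 3.58.1 in R 4.3.3 was fitted to the 12 control and knock-out arrays as 4 sets of 3, and p-values were adjusted by Benjamini and Hochberg with a threshold of 0.05. The mean of the knock-out and control differences and the correlations were added after the values were seen. The script was tested on simulated data. Named genes were the largest called differences on chromosome 14, on chromosome 11 and elsewhere in each direction, those of the other contrasts, and per list those of smallest p. The arrays compared, the lists and the tests were chosen with earlier results of these data known. The number of arrays limits the precision. Same-numbered control and knock-out arrays deviated in opposite directions from their group means (r -0.41 to -0.26). So did all control and knock-out pairs of the same replicate set (r -0.46 to -0.10). With near-equal set means that sign follows from the set difference, so it cannot show whether the numbers pair arrays within a set. The main fit did not pair the arrays by number.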

Additional observations from a re-analysis of the deposited data

Results flagged for a closer look

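The test of the difference between the knock-out effects of the 2 replicate sets called 1402 probe sets. The genes it named were Krt19 (3.95), Pdgfc (3.87), Slc39a8 (3.5), Sox1 (3.4), Cpe (3.4) and Csrnp3 (3.33), with the knock-out effect more positive in replicates 4-6, and Dppa3 (-7.34), Pnma5 (-4.85), Aass (-4.47), Uba1y (-4.06), Nrp2 (-3.91) and Smc1b (-3.66), with it more negative. Of the 20 genes that mark the knock-out, the 9 whose effect differed were Lrp2 (3.09), Kbtbd11 (1.61), Fmr1nb (1.49), Mest (1.36), Tdrd12 (-1.63), Bhlhe40 (-1.88), Egln3 (-1.88), Abca1 (-3.16) and Sfmbt2 (-3.51). Pnma5, Slc39a8, Smc1b and Mest read under 5 on all 6 knock-out arrays, so their differences are not measured on that side. With values below 5 raised to 5 they were -1.23, 1.24, -1.05 and 0.72, and that of Smc1b lost its call (adjusted p = 0.231). Dppa3, Aass, Uba1y and Sfmbt2 read under 5 on all knock-out replicates 4-6, and Krt19, Csrnp3, Fmr1nb and Lrp2 on all knock-out replicates 1-3. Their differences are thus partly read near background. With raised values, those of Dppa3, Aass, Csrnp3 and Fmr1nb were -5.74, -3.88, 1.22 and 0.81, all still called.

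In some groups of 6 arrays, 1 array lay far from the rest, measured as its gap to the nearest array over the range of the group. Chance does this in about 1 in 20 groups. Every named gene was searched in both genotypes, so several single genes would be flagged by chance alone. Control replicate 4 was that array for the median of tested probe sets (0.772), the median over all genes (0.833), the median of chromosome 8 (0.75) and, of single genes in the controls, for Krt19 (0.767), Htt (0.7), Ccdc18 (0.685), Perp (0.681) and Tgm2 (0.652). In the knock-out, replicate 5 stood highest in the median over all genes (0.667), replicate 2 lowest for Htt (0.833) and replicate 4 highest for Tgm2 (0.72).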

How the results depend on the processing

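The knock-out set difference stayed within 1.5 times its count of 175 under centring, quantile normalization, both other filters, raised low values, a trend in the variance and a fit on the knock-out arrays alone (158 to 256). It gave 14 calls in the fit on all 24 arrays, where the knock-in arrays also enter the estimate of the spread, and 707 with array weights. Why the count fell to 14 was not tested. The control difference gave 15, 3456 and, on the control arrays alone, 59. The difference between the sets gave 295 and 4205, the knock-out effect within replicates 1-3 gave 1148 and 4666, and that within replicates 4-6 gave 1854 and 6247, for the all-array fit and the weights. The replicate block treated same-numbered arrays as pairs, though it is not known whether they are. It gave 781 calls for the difference, 1650 within replicates 1-3 and 2558 within replicates 4-6. Leaving out 1 array gave 59 to 598 for the knock-out difference (59 without knock-out replicate 3, 62 without replicate 6, 74 without replicate 5, 86 without replicate 2, 89 without replicate 1, 598 without control replicate 4), 78 to 1105 for the control, 851 to 2537 for the difference, 1370 to 3817 within replicates 1-3 and 2470 to 4044 within replicates 4-6; the highest of each was without control replicate 4. The mean of the knock-out and control differences called 9 probe sets with low values raised to 5 and 0 to 1 when 1 array was left out (1 without control replicate 4), and their correlation was -0.7 without control replicate 4 and -0.8 with low values raised; it was -0.85 without chromosomes 1, 2, 8, 11, 14, X and Y. The chromosome 14 change between the knock-out sets was 0.18, 0.4 against controls of the same set and 0.14 with centred arrays; that of chromosome 11 was -0.12 and -0.24 against controls of the same set. Leaving out 1 knock-out array gave 0.16 to 0.19 and -0.15 to -0.1. No control array was left out for the chromosomes. Of 2223 alternative values for single genes, 1912 stayed on their side of the threshold, 298 lost it and 12 gained it; 1 changed sign, Uty within replicates 1-3, at 0.02 without knock-out replicate 1 (-0.33 to 0.02 over the arrays left out). Of the 36 genes named between the knock-out sets, 14 kept their call whichever knock-out array was left out (3 of them under 5 on all 6 knock-out arrays) and 7 kept it in the fit on all 24 arrays. With 3 arrays a set, and values under 5 near background, small and low differences are poorly measured.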
